A study of Mus musculus with 3 samples.

Results

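The genes described here carry the names of the machinery that sorts membrane proteins in endosomes. These are the vacuolar protein sorting (Vps) proteins, the sorting nexins (Snx) and the charged multivesicular body proteins (Chmp) of the ESCRT-III complex. They were selected on the name, as every gene whose symbol in the array annotation starts with Vps, Snx or Chmp followed by a digit and which has a probe set annotated to that gene alone. This gave 75 genes on 78 probe sets, out of 19938 genes measured. The name also took in Vps72, which encodes a histone chaperone, and the Vps13 lipid transfer genes, and all counts over the members include them. Of the 75, 72 have 1 probe set; Vps4b, Snx29 and Vps13d have 2 each, and for these the probe set was chosen by the higher mean log2 intensity over the 3 arrays. That mean is the only measured value used to choose what is shown, and 2 of its 3 arrays are CAR arrays.

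Mouse bone marrow stromal cells were sorted from tibia, femur and pelvis at baseline and profiled on single-colour Affymetrix arrays. The CXCL12-abundant reticular (CAR) cells, stromal cells with a high level of the chemokine CXCL12, came from CXCL12-GFP knock-in mice (2 arrays, labelled as replicates of 2 mice). The other population, called PaS here, was gated as PDGFRa+ Sca+ CD45- lineage- and came from Prx1-Cre Rosa26Ai9/+ Cxcl12gfp/+ mice (1 array of cells combined from 3 mice). Every mouse carried a GFP allele at Cxcl12, while the Prx1-Cre driver, active in limb mesenchyme, and the Rosa26 reporter were present only in PaS mice, so genotype and cell type cannot be told apart. The labels give no age. The PaS side has no replicate, so the error of every comparison comes from the CAR arrays and measures the spread between those arrays only.

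The array labelled PaS was mixed for the markers of its gate and population. Pdgfra stood at 7.52 and 7.97 log2 units on the CAR arrays, against 4.33 on the PaS array, and Ptprc, which encodes CD45, at 5.11 and 5.01 against 8.27; both go against the gate. The other 3 markers of PaS cells measured were high on the PaS array as labelled: Dpt stood at 2.60 and 2.27 on the CAR arrays against 8.10, Thy1 at 3.56 and 3.69 against 7.67 and Cd34 at 2.53 and 2.23 against 4.73. Ly6a, the gene of the gate marker Sca, was listed but not among the genes measured. Both CAR arrays also lay below the PaS array for all 5 endothelial markers. All 7 of 7 leukocyte markers measured were lower in CAR cells past the test, with summed intensities of 247 and 325 on the CAR arrays, against 1926 on the PaS array. Of 8 neutrophil markers 6 were lower past the test, with sums of 2865 and 2568 against 14759. All 7 of 7 markers of CAR stroma were higher, with sums of 5352 and 6229 against 363. No value on these arrays is 0. These markers move with every difference given below, and their part in those differences was not tested. In RNA pooled from many cells, fewer cells of a type and less RNA per cell cannot be told apart.

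Receptors and ligands that enter a cell by endocytosis reach early endosomes, where they are either recycled to the plasma membrane, returned to the trans-Golgi network or sent on to lysosomes for degradation. Retromer, retriever and sorting nexins carry proteins out of endosomes along the first routes. ESCRT complexes bend the endosomal membrane inward and pinch cargo into vesicles for degradation, and the tethering complexes HOPS and CORVET join endosomes to each other and to lysosomes. Most of these proteins are used by every cell type, and the chemokine receptors, integrins and growth factor receptors of marrow stroma are among the proteins they handle.

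On the whole these genes stood higher in CAR cells than on the PaS array, by modest amounts. In limma's fit over all 19938 genes, 16 of 75 members were higher in CAR cells and 1 was lower, at a Benjamini-Hochberg adjusted p under 0.05. Over all genes, 8.56% were called higher and 6.42% lower, 15.0% in all. The median log2 difference (CAR minus PaS) was 0.51 over the members and −0.10 over all genes. Both CAR arrays lay above the PaS array for 49 members (65.3%), against 37.4% of all genes, and both lay below it for 12 members, against 46.8%. At least 2-fold apart in both CAR arrays were 20 members on the higher side (26.7%, against 10.9% of all genes) and 2 on the lower side (2.67%, against 8.92%).

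The background differed with brightness. Of the 75 members, 67 had a mean level at or above the median gene, and among the 9969 genes of that kind 20.7% were called higher, 5.12% were called lower and the median difference was 0.37. In that fit 20 of the 67 members (29.9%) were called higher and 2 lower, with a median of 0.51. After quantile normalization of the 3 arrays, which moved the median of all genes by 0.13 to 0.03, 21 members were higher and 5 lower, against 14.2% and 12.7% of all genes, and the median member stood at 0.31.

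The calls were close to the threshold. The 17 differences had a size between 1.22 and 2.22 log2 units, with adjusted p between 0.0182 and 0.0498, and 8 of the 17 lay above 0.045. On the PaS array 8 of these 17 genes were dimmer than that array's median of 3.77, so their folds are uncertain in size, because no detection calls were used. The CAR arrays differed from each other by a median of 0.36 log2 units over the members.

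**Figure D1:**
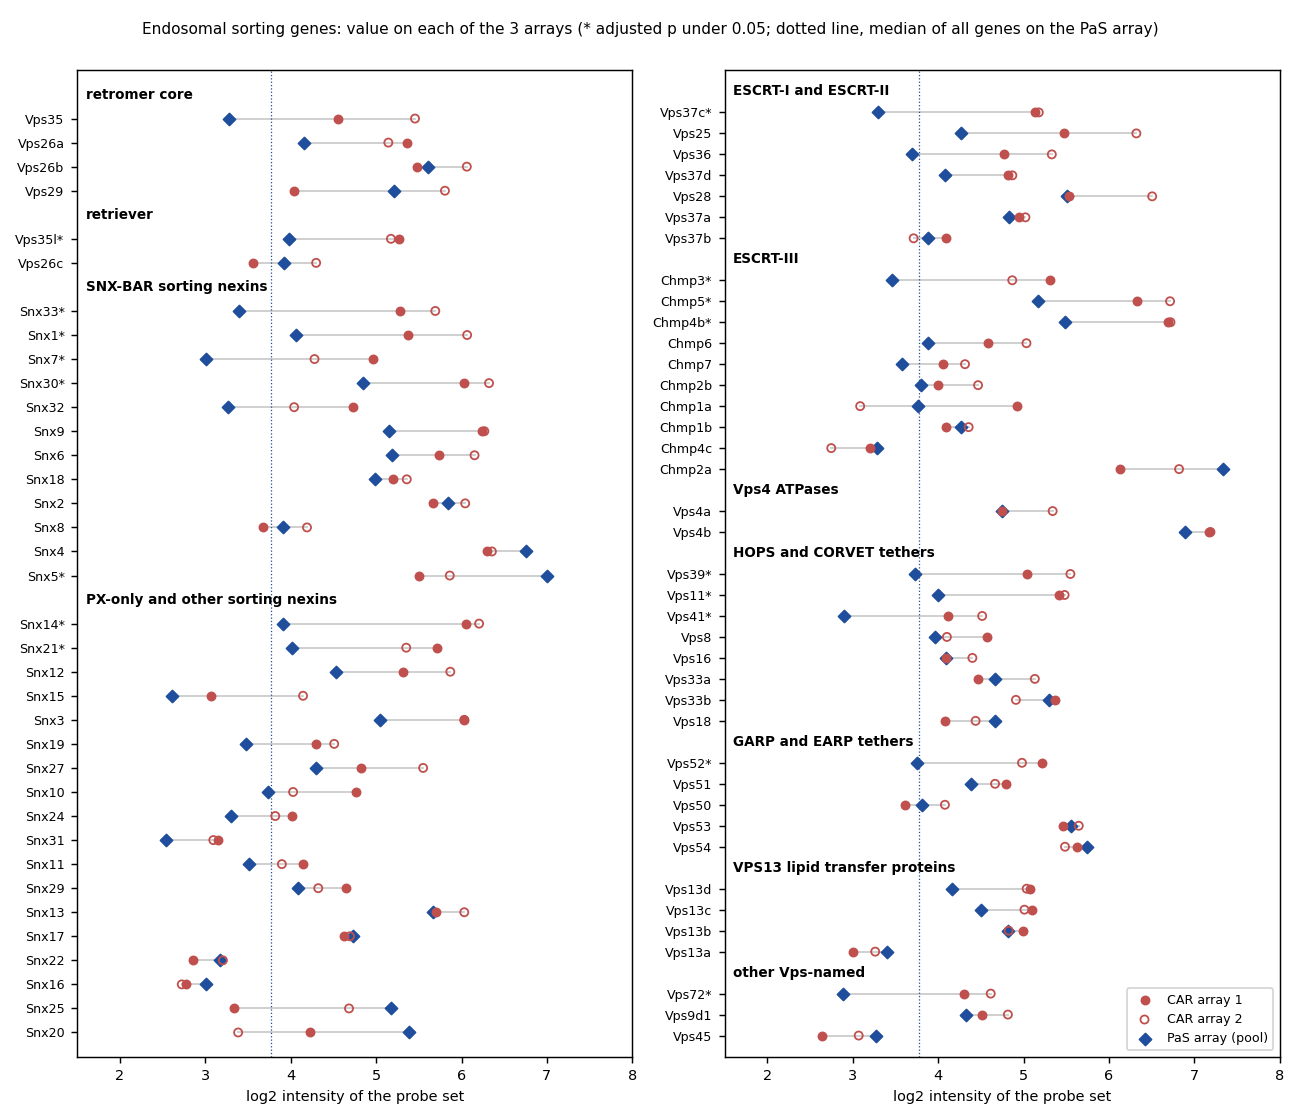
The log2 intensity of each of the 75 genes on CAR array 1 (filled circle), CAR array 2 (open circle) and the PaS array (diamond), in groups by role and sorted by the difference within each group. The PaS diamond lies left of both CAR circles for 49 genes; an asterisk marks the 17 genes past the test.

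Retromer is the coat that returns cargo from endosomes, and its core is Vps35, Vps29 and a Vps26 subunit. Of 4 core genes 0 passed limma's test on the deposited values, and 2 of 4, Vps35 and Vps26a, had an unadjusted p under 0.05. So had 7004 of all 19938 genes, so this count is not particular to retromer. Vps35, the scaffold on which the others assemble, stood at 4.55 and 5.46 on the CAR arrays, against 3.27 on the PaS array (log2 difference 1.73 ± 0.44, SE; limma adjusted p = 0.0583). Both CAR arrays were more than 2-fold above the PaS array, and after quantile normalization the difference of 1.83 passed (adjusted p = 0.00803). Vps26a, a cargo-binding arm, stood at 5.36 and 5.14 against 4.16 (difference 1.09, adjusted p = 0.0637). The PaS value of its paralog Vps26b, 5.61, lay between the CAR values of 5.48 and 6.06. So did that of Vps29, at 5.21 between 4.04 and 5.81, and this gap of 1.76 between CAR arrays was among the widest of any member.

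Retriever is a retromer-like complex that shares Vps29 and recycles integrins and other cargo of Snx17. Vps35l, its scaffold, rose 2.36-fold in CAR cells, with 5.26 and 5.17 on the CAR arrays against 3.98 on the PaS array (log2 difference 1.24 ± 0.28, SE; adjusted p = 0.0465). Its partner Vps26c had a difference of 0.00, with the PaS value of 3.93 between the CAR values of 3.56 and 4.30.

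Sorting nexins with a BAR domain sense and bend membrane into tubules. Of 12 measured, 4 rose and 1 fell in CAR cells (over all genes, 8.56% and 6.42%), with a median difference of 0.93. Snx33, a relative of the endocytic nexin Snx9, stood at 5.28 and 5.69 on the CAR arrays, against 3.39 on the PaS array, 4.27-fold higher (log2 difference 2.09 ± 0.32; adjusted p = 0.0235). Snx1, a membrane-bending partner of retromer, stood at 5.38 and 6.07 against 4.07 (3.15-fold, adjusted p = 0.0479). Snx7 and Snx30 belong to the branch of nexins that pair with Snx4 in recycling and autophagy. Snx7 stood at 4.96 and 4.28 against 3.01 (3.06-fold, adjusted p = 0.0498), and Snx30 at 6.03 and 6.32 against 4.85 (2.51-fold, adjusted p = 0.0461). In these 4 genes both CAR arrays lay above the PaS array by more than the gap between the CAR arrays.

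Snx5 was the exception. It forms heterodimers with Snx1 or Snx2 and binds sorting signals in cargo such as the mannose 6-phosphate receptor. It stood at 5.51 and 5.86 on the CAR arrays, against 6.999 on the PaS array, and so was lower in CAR cells (log2 difference −1.31 ± 0.31; adjusted p = 0.0497), as were the leukocyte markers. Among the genes that can pair within this coat, Snx1 was thus higher in CAR cells and Snx5 lower. Snx2 differed by 0.02, and Snx6, the paralog of Snx5, by 0.76 (adjusted p = 0.161). Of those not past the test, Snx32 had the largest difference (4.73 and 4.04 against 3.27; 1.12, adjusted p = 0.107) and Snx9 the next (6.24 and 6.27 against 5.15; 1.10, adjusted p = 0.0569).

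Of 18 other sorting nexins, 2 rose and 0 fell in CAR cells (over all genes, 8.56% and 6.42%), with a median difference of 0.59. These counts are close to the shares of all genes. Snx14, a nexin of the endoplasmic reticulum that acts in lipid metabolism, had the largest difference of the 75 members. It stood at 6.05 and 6.21 on the CAR arrays, against 3.91 on the PaS array, 4.65-fold higher (log2 difference 2.22 ± 0.28, SE; adjusted p = 0.0182). Snx21, a relative of Snx20, stood at 5.71 and 5.35 against 4.01 (2.86-fold, adjusted p = 0.0387). For both genes the CAR arrays lay far above the PaS array. The gap between the CAR arrays was 0.15 log2 units for Snx14. For Snx21 it was 0.36, the same as the median gap over the members.

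The largest differences among the other 16 ran in the opposite direction. Snx20, which in leukocytes binds the selectin ligand PSGL-1, stood at 4.23 and 3.38 on the CAR arrays, against 5.38 on the PaS array (log2 difference −1.57 ± 0.43; adjusted p = 0.0659). Snx25, a nexin with a regulator of G protein signalling domain, stood at 3.34 and 4.68 against 5.18 (difference −1.17 ± 0.58; adjusted p = 0.220), with a gap of 1.35 between the CAR arrays. Neither passed on the deposited values, and both passed after quantile normalization (Snx20 −1.89, adjusted p = 0.0071; Snx25 −1.56, adjusted p = 0.0401). Snx20, Snx25 and Snx5 were higher on the only PaS array, as is every gene lower in CAR cells. A link to the leukocyte markers high on that array was not tested.

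Of the remaining nexins outside the BAR group, Snx3, Snx12 and Snx27, which recycle cargo such as Wls or receptors with PDZ-binding tails, were above the PaS array on both CAR arrays without passing. Their differences were 0.98 (adjusted p = 0.0725), 1.07 (0.0972) and 0.89 (0.175). Snx17, the adaptor of retriever, differed by −0.07, with 4.62 and 4.69 on the CAR arrays against 4.73 on the PaS array. Its error of 0.28 log2 units (SE) leaves room for a difference in either direction.

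ESCRT-I and ESCRT-II collect ubiquitin-tagged cargo. Of their 7 measured members 1 rose and 0 fell in CAR cells, with a median difference of 0.77. With 7 genes these counts are close to the shares of all genes, 8.56% and 6.42%. Vps37c, a subunit of ESCRT-I, stood at 5.14 and 5.18 on the CAR arrays, against 3.30 on the PaS array, 3.63-fold higher (log2 difference 1.86 ± 0.28, SE; adjusted p = 0.0230). Its paralogs Vps37a and Vps37b, which can take the same place in the complex, differed by 0.15 and 0.02 and did not pass, and Vps37d by 0.77 (adjusted p = 0.121). The ESCRT-II subunits Vps25 and Vps36 were both more than 2-fold above the PaS array on both CAR arrays. Vps25 stood at 5.47 and 6.32 against 4.26 (difference 1.63, adjusted p = 0.0612). Vps36 stood at 4.77 and 5.33 against 3.70 (difference 1.35, adjusted p = 0.0597). Both passed after quantile normalization, at adjusted p = 0.0243 and 0.0146.

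ESCRT-III subunits polymerise into the filaments that cut the membrane. Of 10 measured Chmp genes 3 rose and 0 fell in CAR cells (over all genes, 8.56% and 6.42%), with a median difference of 0.52. Chmp3 stood at 5.31 and 4.87 on the CAR arrays, against 3.46 on the PaS array (3.09-fold, log2 difference 1.63 ± 0.32; adjusted p = 0.0371). Chmp4b, the main filament subunit, stood at 6.69 and 6.72 against 5.49 (2.32-fold, adjusted p = 0.0473). Chmp5, a regulator of the final steps, stood at 6.33 and 6.72 against 5.17 (2.55-fold, adjusted p = 0.0485). The calls of Chmp4b and Chmp5 were lost after quantile normalization, at differences of 0.66 (adjusted p = 0.101) and 0.83 (adjusted p = 0.0548).

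Not every Chmp gene stood higher in CAR cells. Chmp2a, which caps the filament and recruits Vps4, stood at 6.13 and 6.82 on the CAR arrays, against 7.33 on the PaS array (difference −0.86, adjusted p = 0.179). After quantile normalization its difference of −1.24 passed (adjusted p = 0.0227). Chmp6, which starts the filament from ESCRT-II, had a difference of 0.93 (4.59 and 5.03 against 3.88; adjusted p = 0.112). Chmp1a stood at 4.92 and 3.09 against 3.76, the widest disagreement between CAR arrays among the members, at 1.84 log2 units.

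The ATPases Vps4a and Vps4b, which take ESCRT-III apart, did not pass. Vps4b stood at 7.17 and 7.19 on the CAR arrays, against 6.89 on the PaS array (difference 0.29, adjusted p = 0.500), and its dimmer probe set gave 6.10 and 5.96 against 5.47. Vps4a stood at 4.74 and 5.34 against 4.74 (difference 0.30, adjusted p = 0.598). After quantile normalization both differences changed sign, to −0.14 for Vps4b and −0.11 for Vps4a.

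**Figure D2:**
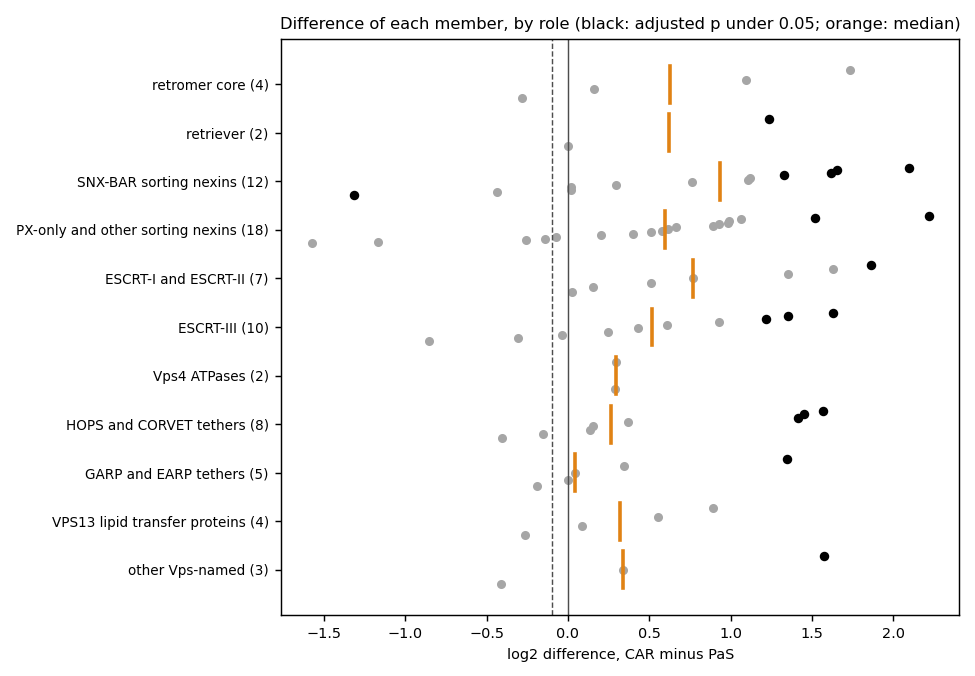
The log2 difference (CAR minus PaS, x axis) of each member, by role (number of genes in brackets), with genes past the test in black, the others in grey and the median of each role in orange; the dashed line is the median of all genes, −0.10. The 16 black points on the right fall in 8 of the 11 roles, and the single black point on the left is Snx5.

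HOPS and CORVET share the core subunits Vps11, Vps16, Vps18 and Vps33a, while Vps39 and Vps41 belong to HOPS and Vps8 to CORVET. Of 8 measured genes grouped here, with Vps33b among them, 3 rose and 0 fell in CAR cells (over all genes, 8.56% and 6.42%). Their median difference was 0.26, below the 0.37 of genes at or above the median level. Vps11 stood at 5.42 and 5.48 on the CAR arrays, against 3.999 on the PaS array (2.73-fold, log2 difference 1.45 ± 0.28; adjusted p = 0.0349). Vps39 stood at 5.04 and 5.55 against 3.72 (2.97-fold, adjusted p = 0.0423). Vps41, which docks on late endosomes and lysosomes, stood at 4.12 and 4.52 against 2.90 (2.67-fold, adjusted p = 0.0453).

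The other 5 genes of this group did not follow in the test. Vps16 and Vps33a differed by 0.16 and 0.14, and Vps8 by 0.37, with 4.57 and 4.10 on the CAR arrays against 3.97 on the PaS array. Vps18 stood at 4.08 and 4.44 against 4.67 (difference −0.41, adjusted p = 0.400), and Vps33b, which works in a separate pair with a partner protein, differed by −0.15. Subunits of the same complex thus ranged from −0.41 to 1.57 log2 units.

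GARP and EARP tether vesicles at the trans-Golgi network and at recycling endosomes. Of 5 measured members 1 rose and 0 fell in CAR cells (over all genes, 8.56% and 6.42%). The median difference of GARP and EARP members was 0.04, below the 0.37 of genes at or above the median level. Vps52, common to both, stood at 5.22 and 4.98 on the CAR arrays, against 3.75 on the PaS array (2.54-fold, log2 difference 1.35 ± 0.29; adjusted p = 0.0429). The other common subunits Vps51 and Vps53 differed by 0.34 and 0.00. Vps54, specific to GARP, differed by −0.19 and Vps50, specific to EARP, by 0.04. The PaS values of Vps50 and Vps53 lay between their CAR values.

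The Vps13 proteins move lipids between membranes at contact sites, and 0 of 4 passed in limma's test, with 0 of 4 adjusted p under 0.05 also after quantile normalization. Vps13d had the largest difference, at 5.07 and 5.04 on the CAR arrays against 4.17 on the PaS array (0.89, unadjusted p = 0.0228, adjusted p = 0.0890), and its second probe set gave 0.90. Vps13c stood at 5.10 and 5.01 against 4.50 (0.56, adjusted p = 0.223). Unadjusted, 1 of the 4 had p under 0.05 in limma's test, as had 7004 of all 19938 genes. Of the last 3 genes with a Vps name, Vps72 rose in CAR cells, with 4.30 and 4.62 on the CAR arrays against 2.88 on the PaS array (2.98-fold, log2 difference 1.57 ± 0.30; adjusted p = 0.0351). Vps72 encodes a histone chaperone of chromatin remodelling complexes and shares only its name with the sorting machinery. Vps45, which controls membrane fusion, differed by −0.41 and Vps9d1 by 0.34, and neither passed.

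The promoters of the 3 members with the largest differences are shown because these genes stood apart most from the PaS array. The stretches end where the annotated gene begins, are read 5′ to 3′ on the strand of the gene and come from a table of RefSeq promoters (GRCm38.p6), in which 49 of the 75 members were matched; that of Snx33 is kept to the 179 bases outside the annotated gene, and Vps37c has 2 annotated starts, of which the first is used. Capitals mark any of 7 motifs searched on both strands: the E-box core CACGTG and its longer form GTCACGTGA, the ETS-type motif CCGGAAGT, the CRE-type motif TGACGTCA, the CCAAT box, the TATA-type motif TATAAA and the Sp-type motif CCGCCC.
Snx14, chr9:88438930-88439179, minus strand: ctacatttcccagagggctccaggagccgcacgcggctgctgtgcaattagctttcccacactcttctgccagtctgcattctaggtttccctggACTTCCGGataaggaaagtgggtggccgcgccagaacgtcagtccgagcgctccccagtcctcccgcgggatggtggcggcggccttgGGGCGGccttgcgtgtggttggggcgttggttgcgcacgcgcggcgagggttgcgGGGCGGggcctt
Snx33, chr9:56928443-56928621, minus strand: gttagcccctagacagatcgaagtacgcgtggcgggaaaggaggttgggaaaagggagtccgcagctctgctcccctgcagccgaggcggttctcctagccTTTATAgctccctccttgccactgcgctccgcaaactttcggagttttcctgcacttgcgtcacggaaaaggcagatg
Vps37c, chr19:10688485-10688734, plus strand: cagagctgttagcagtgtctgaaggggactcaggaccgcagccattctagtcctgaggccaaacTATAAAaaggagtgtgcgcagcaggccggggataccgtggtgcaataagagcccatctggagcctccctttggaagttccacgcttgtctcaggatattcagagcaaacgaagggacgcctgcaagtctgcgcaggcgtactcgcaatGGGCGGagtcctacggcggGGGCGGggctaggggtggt

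The Snx14 stretch holds the ETS-type and the Sp-type motif, both on the opposite strand. The Snx33 stretch holds the TATA-type motif on the opposite strand, and that of Vps37c holds it on the shown strand, with the Sp-type motif on the opposite one. Each CACGTG within GTCACGTGA counts for both motifs. A match is a run of letters and not a measured binding site.

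Over the 250 bases before the start, CCGGAAGT was found in 13.3% of 60 member windows, against 2.88% of 32851 windows of all genes. CCGCCC was found in 61.7% of member windows, against 32.7% of all windows. CCAAT was found in 26.7% against 33.8%, TATAAA in 6.67% against 12.4%, and TGACGTCA in 0 member windows against 1.55%. Of the 16 members that rose, 12 have a window, and CCGGAAGT stood in those of 2, Snx14 and Vps52. It also stood in windows of 4 members that did not pass, Snx12, Snx17, Vps26c and Vps53.

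CACGTG is the core of the E-box read by TFEB and related factors, known regulators of lysosome genes, and GTCACGTGA is the longer form of it typical of lysosome genes. CACGTG was found in 11.7% of member windows, against 6.02% of all windows, and GTCACGTGA in 6.67%, against 0.621%. The 6 genes with CACGTG are shown because they let the motif be set beside the array values; capitals mark CACGTG, within 10 bases on each side where the window reaches that far.
Vps16, chr2:130424292-130424317, plus strand: gcggcctcgtCACGTGaccccgaagg
Vps33a, chr5:123573028-123573053, minus strand: cgactcggatCACGTGaacgtcccgt
Vps33a, chr5:123573016-123573037, minus strand: aacgtcccgtCACGTGacgcag
Vps26a, chr10:62486972-62486997, minus strand: cacggctcgtCACGTGacaactagct
Vps26a, chr10:62486758-62486783, minus strand: aaggagtggtCACGTGcggctgatgg
Vps26a, chr10:62486734-62486759, minus strand: ggcctacggtCACGTGacgggcggcg
Snx18, chr13:113618735-113618760, minus strand: tcccacccacCACGTGgtcactcaag
Snx8, chr5:140389393-140389418, minus strand: cggccgcggcCACGTGgttggggcgt
Snx5, chr2:144270607-144270632, minus strand: actgggggagCACGTGgcgtgccgct

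The sites of Vps16, 1 of those of Vps33a and 2 of the 3 of Vps26a hold the longer form. None of the 12 members with a window that rose in CAR cells held CACGTG there. The motif stood in those of 5 of the 36 members not past the test and in 6.02% of all windows. With 12 genes, a count of 0 is close to these shares and is not a trait of the genes that rose. Vps16, Vps33a and Vps26a differed by 0.16, 0.14 and 1.09 log2 units and Snx18 and Snx8 by 0.29 and 0.02, none past the test, and Snx5 was lower in CAR cells.

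**Figure D3:**
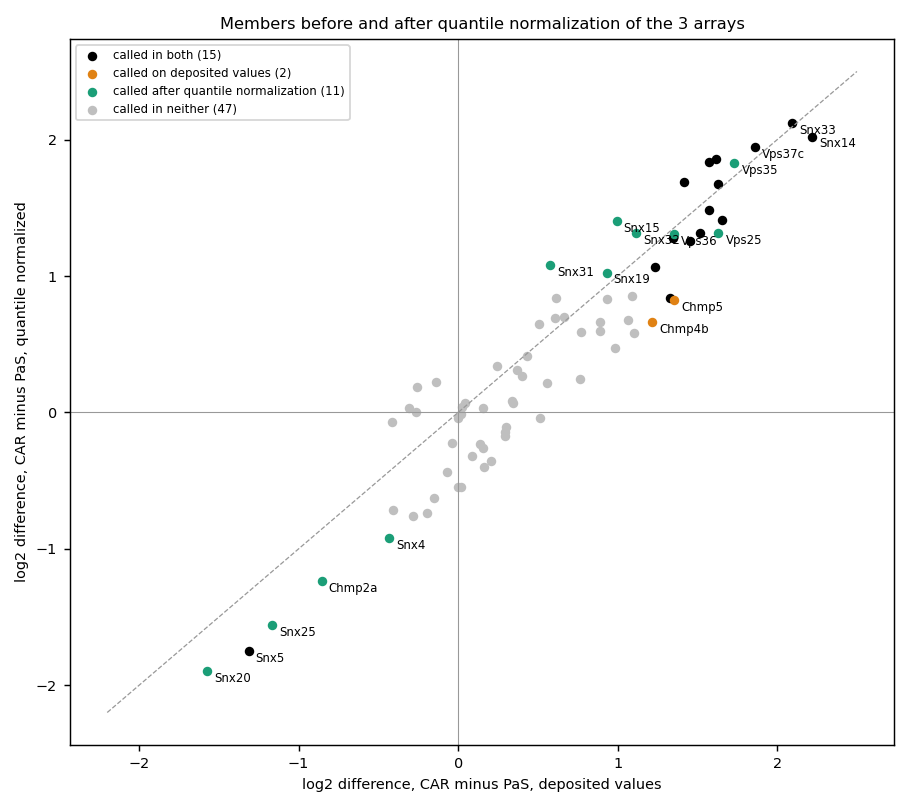
The log2 difference (CAR minus PaS) of each member on the deposited values (x axis) and after quantile normalization of the 3 arrays (y axis), coloured by whether the gene passed the test before, after, both or neither. Of the 75 members 15 passed in both, 2 (Chmp4b and Chmp5) only before and 11 only after; points below the dashed line of equality moved down with normalization.

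Quantile normalization kept 15 of the 17 calls and added 11. The 11 were Vps35, Vps25, Vps36, Snx15, Snx19, Snx31 and Snx32, higher in CAR cells, and Snx4, Snx20, Snx25 and Chmp2a, lower. Of these 11, 6 lay below the median of all genes on the PaS array, at 3.27 for Vps35, 3.70 for Vps36, 2.61 for Snx15, 3.48 for Snx19, 2.54 for Snx31 and 3.27 for Snx32. Snx4, a nexin of recycling and autophagy, stood at 6.30 and 6.36 on the CAR arrays, against 6.76 on the PaS array, as deposited (difference −0.43), and differed by −0.92 after normalization (adjusted p = 0.0359). The sign changed for 17 members, none of which passed in either fit. The spread of all genes was narrower on the PaS array. The interquartile range was 1.96 and 2.28 log2 units for the CAR arrays, against 1.35 for PaS.

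Genes that work with these complexes but carry other names were read in the same fit. Of the 16 called higher, 7 (Snf8, Commd3, Tgfbrap1, Rbsn, Pik3c3, Wls and Stx8) were dimmer on the PaS array than its median, so their folds are uncertain in size. Of 16 measured ESCRT partners 2 rose and 0 fell in CAR cells (over all genes, 8.56% and 6.42%), with a median difference of 0.35. These counts are close to the shares of all genes. After quantile normalization the median was 0.04, against 0.03 over all genes. Snf8, the third subunit of ESCRT-II beside Vps25 and Vps36, stood at 4.67 and 4.13 on the CAR arrays, against 2.80 on the PaS array (3.02-fold, adjusted p = 0.0429). Ist1, an ESCRT-III-like regulator of Vps4, stood at 6.09 and 6.68 against 4.62 (3.40-fold, adjusted p = 0.0385).

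Of 19 genes of the WASH actin complex and the COMMD proteins that accompany retriever, 2 rose and 1 fell. These counts too are close to the shares of all genes. Washc4, a WASH subunit, was 3.12-fold and Commd3 3.36-fold higher in CAR cells (adjusted p = 0.0384 and 0.0257). Commd9 stood at 4.06 and 3.74 on the CAR arrays, against 5.57 on the PaS array (difference −1.67, adjusted p = 0.0317).

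Of 37 endosomal Rab genes, tethers and phosphoinositide kinases 5 rose and 0 fell (over all genes, 8.56% and 6.42%), with a median difference of 0.60. Tgfbrap1, the CORVET subunit that takes the place of Vps39, stood at 5.14 and 5.27 on the CAR arrays, against 2.60 on the PaS array (6.11-fold, adjusted p = 0.0137). Rbsn, an early endosome tether, was 4.22-fold, and Ehd3, a membrane-remodelling ATPase, 4.44-fold higher. The lipid kinases Pik3c3, which makes the lipid that sorting nexins bind, and Pikfyve were 2.95-fold and 2.65-fold higher. After quantile normalization 10 of the 37 were higher and 2 lower, against 14.2% and 12.7% of all genes.

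Cargo receptors and the fusion proteins of endosomes gave 7 genes higher and 1 lower in CAR cells among 24. Wls, the Wnt carrier recycled by retromer and Snx3, was 5.35-fold higher, Lrp1, an endocytic receptor, 5.29-fold, Egfr 5.39-fold and the SNARE protein Stx8 4.91-fold (limma adjusted p of 0.0162 to 0.0235 over these 4). Igf2r, the large mannose 6-phosphate receptor and a cargo of Snx5, stood at 6.005 and 6.12 on the CAR arrays, against 4.37 on the PaS array (3.23-fold, adjusted p = 0.0271). Sorl1, a retromer cargo also found in leukocytes, stood at 4.56 and 4.13 against 6.29 (difference −1.95, adjusted p = 0.0269). Sorl1 and Commd9, like Snx5, were higher on the only PaS array, which follows from being lower in CAR cells. A link to the leukocyte markers high on that array was not tested.

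**Figure D4:**
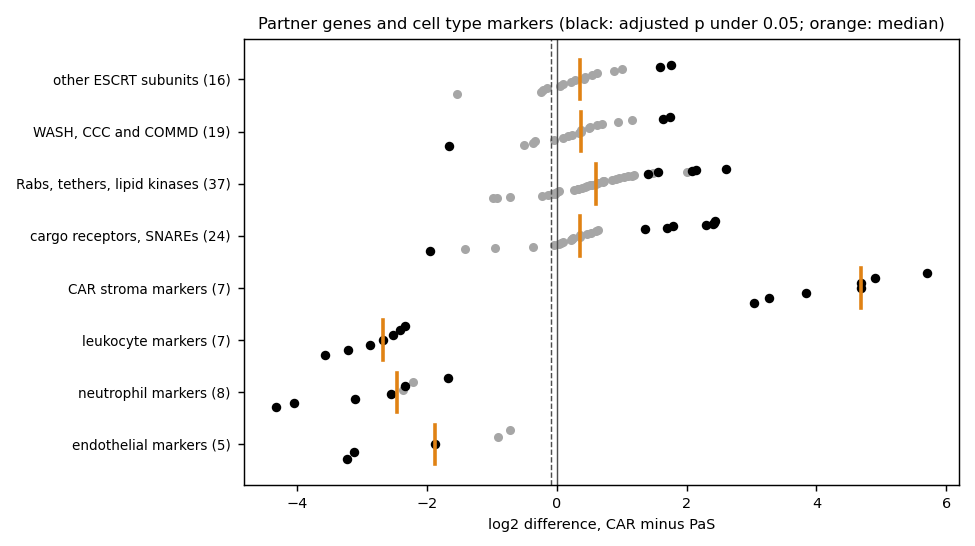
The log2 difference (CAR minus PaS, x axis) of partner genes with other names and of cell type markers (number of genes in brackets), with genes past the test in black, the others in grey and medians in orange; the dashed line is the median of all genes. Partner medians lie between 0.35 and 0.60, whereas the median is 4.69 for CAR stroma markers and −2.68 for leukocyte markers. The median was 0.37 over the 9969 genes at or above the median level, near the lower end of the partner medians. After quantile normalization the partner medians lay between 0.04 (ESCRT partners) and 0.44 (Rabs, tethers and lipid kinases), against 0.03 over all genes.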

How the data were processed

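Log2 was taken, with no pseudocount, of the signal intensities deposited by the authors, 1 per probe set on a linear scale. The submitters' processing notes name Affymetrix Expression Console and RMA, a method that corrects background, quantile normalizes probes and summarises them. Versions and genome build: not given in the sources used here. The deposited values of the 3 arrays nevertheless did not share 1 distribution. Their interquartile ranges over genes were 1.96 and 2.28 log2 units for the CAR arrays, against 1.35 for PaS. The main differences were taken on these values as deposited. Of 35556 probe sets 21789 carried 1 gene symbol; 1621 with several and 12146 unnamed here were left out. Symbols were updated through gene identifiers, and each gene was represented by its brightest probe set, by mean log2. CAR and PaS were compared with limma 3.58.1 in R 4.3.3 (lmFit, eBayes), two-sided, with Benjamini-Hochberg adjustment over 19938 genes and a threshold of 0.05. The fit has 1 residual degree of freedom and 4.20 prior degrees of freedom, and takes its spread from the CAR arrays alone; the number of arrays limits the precision. An SE is limma's moderated standard error.

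The members and lists were chosen with earlier results of these data known. Every member past the threshold is named with its values, then the 2 of each role with the largest difference; other members appear beside their complex. Partner genes are those past the threshold, at most 4 in each direction per list; Igf2r and Pikfyve were named after their values were seen. Markers of endothelium (3 of 5 lower in CAR cells, with summed intensities of 51.4 and 48.2 in CAR, against 213 in PaS) and of PaS cells (1 of 4 higher in CAR cells, Pdgfra, and 3 lower, Dpt, Thy1 and Cd34) were read too. Promoter motifs were chosen without a test. Alternatives were quantile normalization, centring, another probe set rule, a pseudocount of 16, a filter on dim genes, other variance moderation and leaving out each CAR array.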

Additional observations from a re-analysis of the deposited data

How the results depend on the processing

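No paired analysis was possible because the CAR and PaS arrays came from different mice, of different genotypes. The count of 17 members past the threshold became 26 after quantile normalization (21 higher, 5 lower) and 0 with log2(intensity + 16); with that pseudocount limma called 0 of all 19938 genes (smallest adjusted p = 0.0539), while 26 members and 5785 genes had an unadjusted p under 0.05. The count lay between 12 and 23 under the other settings (centring, both other probe set rules, bright genes only, a trend or a robust prior). In every setting except the pseudocount, 11 members were called. The 22 members at least 2-fold apart in both CAR arrays became 17 after quantile normalization (15 higher, 2 lower) and 24 after centring. They became 2 with the pseudocount, which shrinks folds of dim genes by construction. With a single CAR array, which drops the need for both to pass, they became 27 to 29. The median difference of 0.51 was 0.31 after quantile normalization, 0.54 after centring, 0.24 with the pseudocount and 0.52 to 0.53 with a single CAR array. Quantile normalization turned 3 of the 38 differences followed, Vps4a (−0.11), Vps4b (−0.14) and Vps26c (−0.038), none past the test; the cause was not tested. With the mean of all probe sets the calls of Snx5 and Snx7 were lost (adjusted p = 0.0501 and 0.0509), and with a variance trend those of Snx5, Chmp4b, Chmp5, Snx30 and Vps35l (0.0531 to 0.0633). With 1 PaS array, nothing here measures the spread between PaS samples.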

Other observations

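In 3 places members are next to each other in the genome annotation. Snx1 rose in CAR cells, whereas its neighbour Snx22 stood at 2.85 and 3.21 on the CAR arrays, against 3.17 on the PaS array (difference −0.14, adjusted p = 0.781). Snx2 and Snx24 differed by 0.02 and 0.61, and Chmp4c and Snx16 by −0.31 and −0.26, none past the test.

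Of the 75 members, 4 differed by more than 1 log2 unit between the CAR arrays: Chmp1a (1.84), Vps29 (1.76), Snx25 (1.35) and Snx15 (1.08). CAR array 2 was the higher for Vps29, Snx25 and Snx15, and CAR array 1 for Chmp1a. Over the members the median gap between the CAR arrays was 0.36, against 0.27 over all genes.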
